A study of Mus musculus with 9 samples.

Results

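The genes described here are the 161 genes whose probe sets carry the annotation RNA splicing in the authors' deposited table, of 19593 genes measured. They are covered by 212 probe sets of 35552. A probe set was taken when it had a gene symbol and when that exact term stood among its biological process terms. The set as a whole was chosen on its log2 values over these same 9 arrays, in all 3 groups, so its differences between groups are given as a description and without a test over the set.

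RNA was profiled on gene expression arrays in CD80+ medullary thymic epithelial cells, which lie in the inner zone of the thymus and display tissue antigens to maturing T cells. All cells came from thymuses of female Balb/c mice aged 4-6 weeks. The 9 arrays form 3 groups of 3 biological replicates, namely C2TA knockdown (arrays 4 to 6), C2TA knockout (arrays 7 to 9) and C2TA wild type (arrays 1 to 3). C2TA, encoded by Ciita, is the master activator of MHC class II genes. The labels do not name the construct behind the knockdown or the deleted part of the gene in the knockout, nor how many mice stand behind an array. P-values therefore measure only the spread between these samples, which may be partly technical. In bulk samples, fewer cells of a type and less RNA per cell cannot be told apart.

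Splicing removes introns from transcripts in the nucleus. The spliceosome is built on an intron from small nuclear ribonucleoproteins (snRNPs), U1 at the 5' splice site and U2 at the branch point, then the U4/U6.U5 tri-snRNP, and is rearranged by helicases and the Prp19 complex before catalysis. SR proteins mostly promote the use of nearby exons, hnRNP proteins often repress it, and the exon junction complex marks the joined exons. In the thymic medulla, splicing sets which splice forms of tissue antigens are shown to T cells.

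The values are log2 signals after RMA, so a difference of 1 is a 2-fold difference, and signals of different probe sets are not comparable as amounts of RNA. Ciita itself had 5.44, 4.94 and 5.50 in the knockdown, 5.96, 6.16 and 6.11 in the knockout, and 6.37, 6.55 and 6.28 in wild type. Both C2TA groups lay below all wild type arrays, and the position of the probe set relative to the deleted part is not known, so the knockout value checks nothing. Aire, which marks mature medullary epithelium, had 11.25 to 11.50 in the knockdown, 9.71 to 9.86 in the knockout and 9.60 to 10.04 in wild type, and the epithelial marker Epcam lay between 8.69 and 9.36 on all arrays. The median over all genes differed little between arrays (4.48 to 4.54), but their spread did. The interquartile range was 2.20 on wild type 1 and 2.37 on knockout 7, against 2.53 to 2.80 on the other arrays.

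Promoter sequences of the splicing genes were searched for short motifs. RefSeq windows of 300 bases (250 before and 50 after the annotated start, GRCm38.p6) were found for 134 of the 161 genes, 165 windows in all. The core motif of ETS factors, CCGGAAG on either strand, was present in 28.5% of them, in 12.05% of the windows of all measured genes and in 8.86% of all windows. The GC box GGGCGG was present in 67.9% of the splicing windows, 50.03% of those of measured genes and 35.7% of all, and CCAAT in 44.2%, 37.5% and 37.4%. TATAAA was present in 7.88%, 11.8% and 13.6%. The NRF1 motif was found in 0.606% and 1.44% of the splicing and measured windows, and the YY1 motif in 1.82% and 1.03%. These motifs were searched on both strands, they may overlap, and a match is not a bound site. The GC content had a median of 60.7% in the splicing windows, against 57.7% in those of measured genes.

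The 250 bases before the start are printed for 5 genes, with the ETS core in capitals on whichever strand it lies. Srsf5, Snrpb2 and Cwc15 are the genes with an ETS core there that were furthest below the other wild types on wild type 1. Magoh was the furthest below of all genes with a window, and Scaf1 the furthest above.
Srsf5, chr12:80945249-80945498, plus strand: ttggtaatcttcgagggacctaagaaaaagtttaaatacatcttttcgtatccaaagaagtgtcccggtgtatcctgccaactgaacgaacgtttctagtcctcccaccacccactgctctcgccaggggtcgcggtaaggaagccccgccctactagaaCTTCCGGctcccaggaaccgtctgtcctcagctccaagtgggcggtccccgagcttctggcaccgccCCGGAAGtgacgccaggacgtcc
Snrpb2, chr2:143062819-143063068, plus strand: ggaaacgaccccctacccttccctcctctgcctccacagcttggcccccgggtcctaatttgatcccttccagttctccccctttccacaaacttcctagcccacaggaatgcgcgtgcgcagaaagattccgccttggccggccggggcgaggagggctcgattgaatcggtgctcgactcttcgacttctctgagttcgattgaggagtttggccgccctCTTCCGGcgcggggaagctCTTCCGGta
Cwc15, chr9:14500369-14500618, plus strand: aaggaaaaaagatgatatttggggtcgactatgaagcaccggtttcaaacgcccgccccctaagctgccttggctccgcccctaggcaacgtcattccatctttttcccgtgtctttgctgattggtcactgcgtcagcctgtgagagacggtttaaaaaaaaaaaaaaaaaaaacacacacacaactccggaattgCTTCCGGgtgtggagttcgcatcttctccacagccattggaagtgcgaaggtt
Magoh, chr4:107879505-107879754, plus strand: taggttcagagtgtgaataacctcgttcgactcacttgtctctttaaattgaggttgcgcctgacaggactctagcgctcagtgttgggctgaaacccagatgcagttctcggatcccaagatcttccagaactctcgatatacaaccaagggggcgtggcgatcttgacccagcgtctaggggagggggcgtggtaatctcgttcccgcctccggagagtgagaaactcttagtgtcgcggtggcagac
Scaf1, chr7:45016250-45016499, minus strand: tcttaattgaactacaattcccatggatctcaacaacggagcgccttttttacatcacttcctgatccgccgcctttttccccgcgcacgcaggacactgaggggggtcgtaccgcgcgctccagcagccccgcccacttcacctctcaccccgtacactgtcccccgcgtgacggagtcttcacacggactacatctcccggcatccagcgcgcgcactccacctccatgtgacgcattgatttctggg
Srsf5 and Snrpb2 hold 2 ETS cores each and Cwc15 holds 1, while Magoh and Scaf1 hold 0. The presence of the motif did not go with a larger deficit on wild type 1. The median difference there was -0.50 for the 43 genes with an ETS core in a window and -0.61 for the 91 genes without one.

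Among the 9 arrays, wild type 1 was the one on which splicing genes were low, and knockout 8 the one on which they were high. Each gene was set against its own mean over the 9 arrays, and the median over the 161 genes was taken per array. It was 0.07, -0.01 and 0.09 on knockdown 4, 5 and 6, -0.13, 0.20 and 0.04 on knockout 7, 8 and 9, and -0.42, 0.11 and 0.05 on wild type 1, 2 and 3. Over all genes the same medians lay within 0.02 of 0 on every array. The knockdown arrays lay close together (SD 0.05), while the spread was 0.17 in the knockout and 0.29 in wild type (n = 3 each). The knockdown values lay within the range of wild type, while knockout 8 lay above it.

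**Figure D1:**
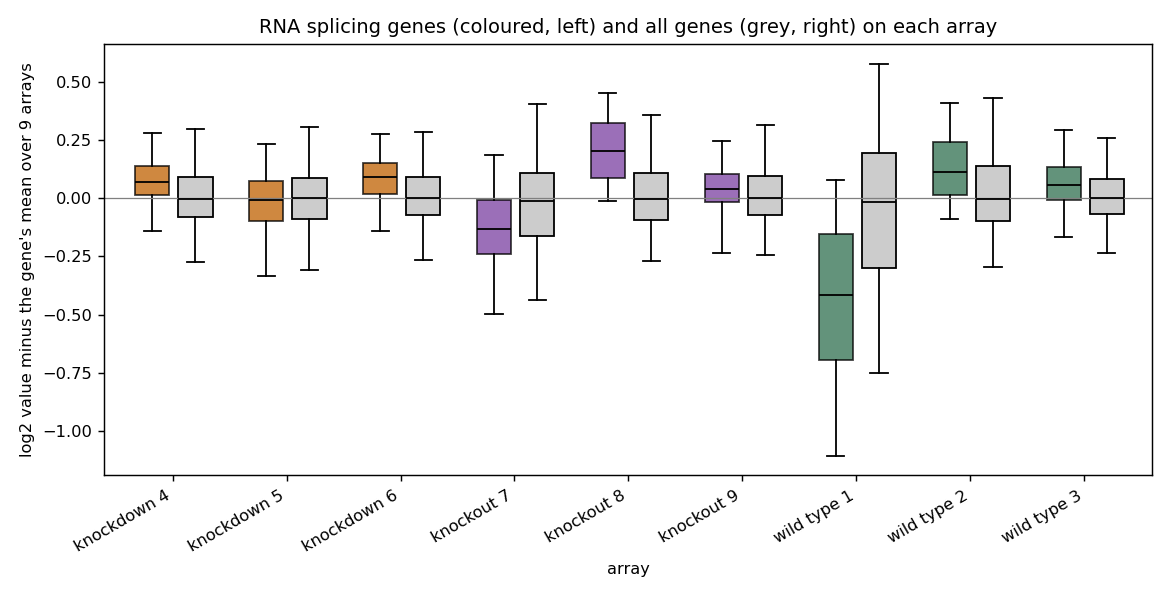
For each array (x axis), the box on the left shows the log2 values of the 161 RNA splicing genes minus each gene's mean over 9 arrays (y axis), and the grey box on the right all 19593 genes. Lines mark medians, boxes the quartiles and whiskers the 5th to 95th percentile; the splicing median is -0.42 on wild type 1 and 0.20 on knockout 8.

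Wild type 1 alone held the lowest value for 106 of the 161 genes, or 65.8%, against 28.8% of all genes. Knockout 7, the array with the next lowest spread, was lowest for 24 of them, or 14.9%, near the 13.6% of all genes. Wild type 1 already held the lowest value for most splicing genes, so these shares do not show that knockout 7 was ordinary. Its splicing median of -0.13 was the next lowest after wild type 1. At the other end, knockout 8 alone held the highest value for 62 genes, or 38.5%, against 10.8% of all genes.

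Set against the mean of wild types 2 and 3, wild type 1 was lower for 139 of the 161 splicing genes, or 86.3%, with a median of -0.48. Over all genes 51.6% were lower and the median was -0.015. A deficit of 1 or more was found for 26 splicing genes, or 16.1%, against 4.44% of all genes. The differences ran from -1.85 for Magoh, a core subunit of the exon junction complex, to 0.63 for Scaf1, an SR-related protein that binds RNA polymerase II.

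Part of this deficit followed the level of the probe sets. On wild type 1 bright probe sets read lower and dim ones higher than on the other wild types, and the probe sets of splicing genes were brighter than most, with a median mean signal of 5.95 (range 3.40 to 10.20) against 4.52 over all genes. For probe sets of mean 5 to 6, the median difference of wild type 1 was -0.42 for 56 splicing genes and -0.25 for all genes. Between 6 and 7 it was -0.60 for 35 splicing genes and -0.45 for all genes, and between 7 and 8 it was -0.67 for 25 and -0.55 for all. Above 8 it was -0.93 for 17 splicing genes and -0.55 for all genes. The dimmer ranges held fewer splicing genes. Between 4 and 5 the median was -0.31 for 18 of them and -0.01 for all genes, and up to 4 it was -0.07 for 10 of them and 0.21 for all genes. In each of the 6 ranges the median of the splicing genes lay below that of all genes in the range. The lowest and highest ranges were wide and not matched for level within. Means ran from 1.36 to 13.08 over all genes and from 3.40 to 10.20 for splicing genes.

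**Figure D2:**
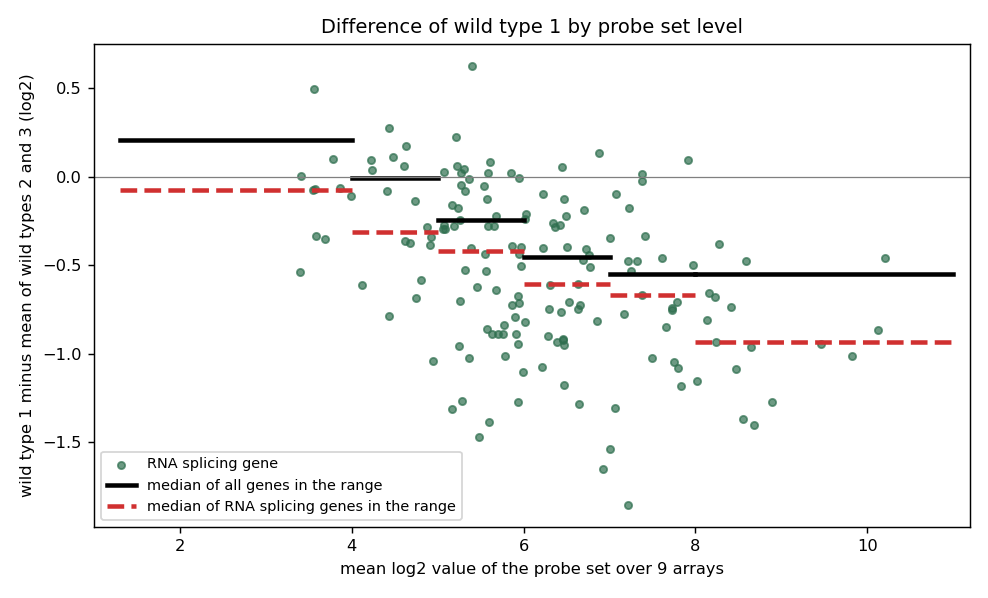
Each point is 1 of the 161 RNA splicing genes, with its mean log2 value over 9 arrays on the x axis and the difference of wild type 1 from the mean of wild types 2 and 3 on the y axis. Black bars give the median of all genes and red dashed bars that of the splicing genes in each of 6 ranges of level; the red bars lie below the black ones, at -0.93 against -0.55 above a mean of 8.

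Giving all arrays the same spread took away part of the deficit. After a repeated quantile normalization the median difference of wild type 1 was -0.26 with 117 genes lower, after scaling each array by its median and median absolute deviation it was -0.23 with 115 lower, and after cyclic loess it was -0.19 with 108 lower. The median on wild type 1, relative to each gene's mean, was then -0.23, -0.20 and -0.17, still the lowest of the 9 arrays. Centring each array on its median, which leaves the spread as it is, gave -0.47. Of the 27 genes with several probe sets of this annotation, 24 were lower on wild type 1 on every one of them. The exceptions were Rbm39, Rbm8a and U2af1, each with 1 of 2 probe sets lower. Rbm39 and Rbm8a each had a dim probe set, with means of 1.98 and 1.47. Probe sets of a gene were not always separate readings. The 11 of Cdc5l gave 4 distinct profiles, and the 2 of Srsf5 were nearly equal (-1.399445 and -1.399444).

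In the knockdown, splicing genes had a median difference of 0.13 from wild type, with 133 of 161 means higher and 28 lower. Over all genes the median was 0.0096 and 52.4% were higher. None of the 161 passed a limma adjusted p of 0.05, where 0.0664% of all genes did, and 1 had an unadjusted p under 0.05, where 5.24% of all genes did. The 3 knockdown arrays did not overlap the 3 wild type arrays for 6 genes (3.73%), against 8.25% of all genes. That share lay below the one of all genes.

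The direction of this difference rests on wild type 1. Without that array the median was -0.038, with 49 genes higher, 109 lower and 3 equal, and 83 genes with a higher mean turned lower. Without wild type 2 it was 0.24 and without wild type 3 it was 0.20. With repeated quantile normalization it was 0.097 on all 9 arrays and 0.013 on the 8 arrays other than wild type 1, a setting chosen after seeing the data. Scale normalization gave 0.069 and cyclic loess 0.074. With each array's interquartile range added to the model it was 0.043. With array weights, where wild type 1 had a weight of 0.127 and knockout 7 one of 0.315, it was 0.0048, and 82 of 161 genes were higher.

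In the knockout, the median difference from the same wild type arrays was 0.092, with 133 genes higher and 28 lower, against 0.0075 and 51.8% higher over all genes. None passed a limma adjusted p of 0.05, against 0.0459% of all genes, and 1 had an unadjusted p under 0.05, against 3.34%. The groups did not overlap for 6 genes (3.73%), against 4.83% of all genes. Without wild type 1 the median was -0.061, with 63 genes higher and 98 lower. Over all genes it was then -0.00071, with 49.5% higher. In order of rising level, the medians of all genes in the same ranges were 0.049, 0.0079, -0.045, -0.10, -0.12 and -0.12. Those of the splicing genes were 0.031, -0.050, -0.038, -0.070, -0.070 and -0.14. The median over all splicing genes was 0.022 without knockout 8 and 0.21 without knockout 7. It was 0.066 with repeated quantile normalization, 0.055 with scale normalization, 0.056 with cyclic loess, 0.033 with the interquartile range covariate and 0.018 with array weights. Both comparisons share the wild type arrays, so a like shift in both is no separate observation.

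Between knockdown and knockout, the median difference was 0.017, with 94 genes higher and 67 lower, against 0.00048 and 50.1% higher over all genes. These values do not involve wild type 1, but the p-values do, through the shared spread. None of the splicing genes passed a limma adjusted p of 0.05, against 0.0408% of all genes. An unadjusted limma p under 0.05 was found for 1, against 5.04%. Without wild type 1, 0 splicing genes and 38 of all genes passed the adjusted threshold. An unadjusted limma p under 0.05 was then found for 3 and 1603 of them. The groups did not overlap for 4 genes (2.48%), against 9.6% of all genes. The sign turned with 1 array, the median being -0.064 without knockout 7 and 0.098 without knockout 8.

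**Figure D3:**
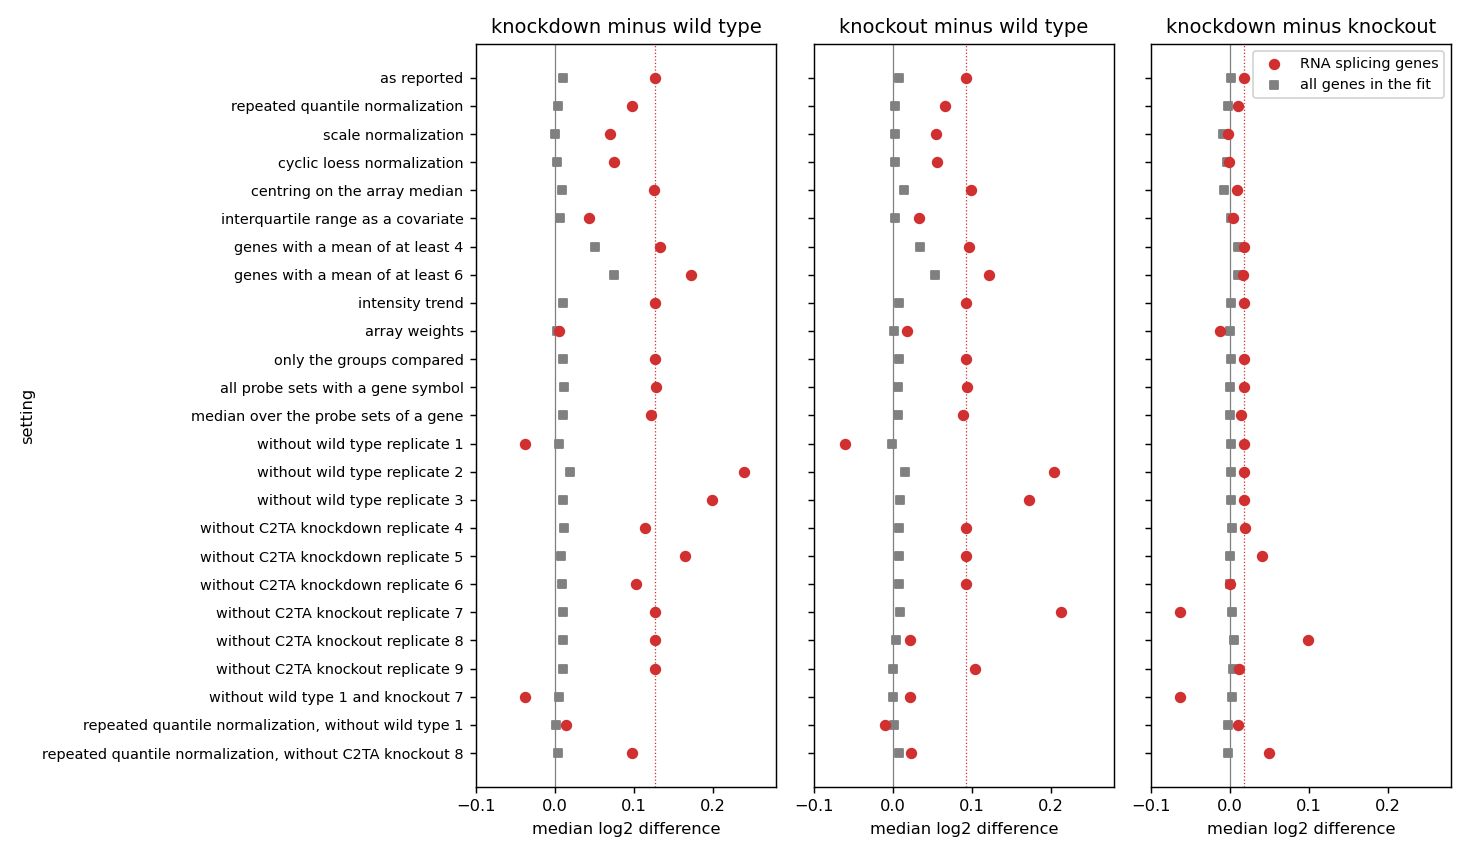
The median log2 difference (x axis) of the RNA splicing genes (red) and of all genes in the fit (grey squares) is shown for each setting (y axis) in the knockdown minus wild type, knockout minus wild type and knockdown minus knockout. Dotted lines mark the values as reported, 0.13, 0.092 and 0.017; without wild type 1 the first and second panels read -0.038 and -0.061.

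Sm and LSm proteins form the rings around the snRNAs, and 17 of them were measured here. Of these, 15 had higher means in the knockdown (median 0.13) and 15 in the knockout (0.17) than in wild type. Without wild type 1 the knockout median was 0.04 with 13 of 17 higher, while the knockdown median was 0.00 with 7 higher and 8 lower. Knockout 8 alone was highest for 14 of the 17. Snrpe, a subunit of the Sm ring, had 5.93, 5.77 and 5.98 in the knockdown, 5.99, 6.74 and 5.96 in the knockout and 5.22, 5.94 and 5.85 in wild type. Its knockout arrays lay above all wild types, with knockout 8 far above the other two. The knockout minus wild type difference was 0.56 (SE 0.24, limma unadjusted p 0.0437, adjusted p 0.9997), and was 0.31 without knockout 8 and 0.34 without wild type 1.

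Snrpd3, another Sm subunit, had 7.13 on each knockdown array, 7.21, 7.47 and 7.03 in the knockout, and 5.61, 7.16 and 7.13 in wild type. Wild types 2 and 3 lay within the knockout range, wild type 3 had the knockdown value, and wild type 1 lay 1.53 below these wild types. Equal values on several arrays (within 1e-06), which a summary by median polish can give, were found for 87 of the 161 genes, for 5 of them on all 3 knockdown arrays, so the spread within a group is understated there. Lsm8 and Lsm6, subunits of the ring around U6, were likewise 1.31 and 1.47 lower on wild type 1. Snrpf had 6.00, 6.26 and 6.06 in the knockout, above 5.51, 5.98 and 5.90 in wild type. Lsm10, a subunit of the histone-processing U7 snRNP, had 4.22, 3.98 and 4.23 in the knockout, all below the 4.32, 4.28 and 4.28 of wild type, a difference of -0.15 (SE 0.13) that was -0.07 without knockout 8.

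Proteins of U1 and the 5' splice site were represented by 5 genes. Snrpa, a core protein of U1, varied little, with 6.84 to 7.04 in the knockdown, 6.87 to 6.88 in the knockout and 6.75 to 6.94 in wild type, and on wild type 1 it was not low. Luc7l3, a U1-associated SR-like protein, had 7.17 on knockout 7 and 7.18 on wild type 1, below 7.71 to 8.03 on the other arrays.

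Among 17 genes of U2 and the 3' splice site, 12 had higher means in the knockdown (median 0.09) and 14 in the knockout (0.11), and without wild type 1 these counts were 5 and 7. The central branch-point factor Sf3b1 had 8.02, 7.85 and 8.20 in the knockdown, 7.77, 8.18 and 8.03 in the knockout, and 7.55, 8.08 and 8.02 in wild type. U2af1l4, a relative of the small U2AF subunit, did not overlap wild type in either comparison, with 5.74, 5.57 and 5.70 in the knockdown, 5.57, 5.64 and 5.57 in the knockout and 5.09, 5.53 and 5.52 in wild type. Its differences were 0.29 and 0.21 (SE 0.13 each), and 0.14 and 0.07 without wild type 1. U2af2, the large U2AF subunit that binds the polypyrimidine tract, ran from 5.87 to 6.02 in the knockdown, 5.60 to 6.08 in the knockout and 6.00 to 6.09 in wild type.

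The U4/U6.U5 tri-snRNP and the minor spliceosome counted 21 genes, of which 20 were lower on wild type 1 (median -0.38). Prpf8, the protein at the catalytic centre, had 7.32, 7.02 and 7.29 in the knockdown, 7.01, 7.54 and 7.58 in the knockout, and 6.99, 7.33 and 7.01 in wild type, so all groups overlapped. Eftud2, the U5 GTPase, lay at 6.46, 6.46 and 6.57 in the knockdown and at 6.32, 6.44 and 6.46 in wild type, with the lowest knockdown array and the highest wild type array alike at 2 decimals. Txnl4b, a relative of a U5 protein, had 3.07, 3.37 and 3.23 in the knockdown, all below 3.62, 3.88 and 3.40 in the knockout, a difference of -0.41 (SE 0.19) at a signal near the lower end of the splicing genes. Snrnp48, a protein of the minor spliceosome, had 4.97, 4.72 and 4.77 in the knockdown, above 4.66, 4.65 and 4.53 in the knockout (0.21, SE 0.13, and 0.14 without knockdown 4).

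For the Prp19 complex and the catalytic steps, 17 genes had a median of -0.72 on wild type 1 against the other wild types. Without that array 14 of the 17 had lower means in the knockdown and 13 in the knockout. Plrg1, a core subunit of the complex, had 7.17, 7.08 and 7.19 in the knockdown, 6.87, 7.33 and 7.18 in the knockout, and 6.04, 7.32 and 7.36 in wild type. Prpf19 itself varied less, with 5.96 to 6.15 in the knockdown, 5.96 to 6.21 in the knockout and 5.84 to 6.06 in wild type. All 8 helicases of the annotation were lower on wild type 1, by 0.30 to 1.15, and all 8 had higher means in both C2TA groups. Without it, 4 of the 8 were higher in each. Dhx16, the helicase that readies the spliceosome for the first catalytic step, had 5.76, 5.76 and 5.75 in the knockout, above the 5.05, 5.72 and 5.67 of wild type. Ddx5, an abundant DEAD-box helicase, had 10.41, 10.10 and 10.19 in the knockdown, 9.88, 10.24 and 10.30 in the knockout, and 9.43, 10.38 and 10.21 in wild type.

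SR proteins and their relatives counted 18 genes, with a median of -0.72 on wild type 1. Means were higher for 15 of them in the knockdown and for 15 in the knockout, and for 5 and 3 without wild type 1. Srsf5 had 8.80, 8.77 and 9.00 in the knockdown, 8.46, 8.78 and 8.62 in the knockout, and 7.62, 9.04 and 9.00 in wild type. Wild types 2 and 3 stood at the top together with knockdown 6, and wild type 1 far below all others. The mean differences from wild type were 0.30 in the knockdown and 0.06 in the knockout (SE 0.32 each), and -0.17 and -0.40 without wild type 1. Srsf1 ranged from 7.69 to 7.94 in the knockdown, 7.53 to 8.20 in the knockout and 6.88 to 8.01 in wild type. Srsf3 was the one classical SR protein with lower means in both groups, with 4.96, 4.43 and 5.04 in the knockdown, 4.44, 5.51 and 4.94 in the knockout, and 4.37, 5.60 and 5.23 in wild type.

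The other classical SR proteins followed the same pattern. Srsf2, Srsf4, Srsf7, Srsf9 and Srsf10 were 0.68, 0.48, 0.77, 1.38 and 1.18 below wild types 2 and 3 on wild type 1. Srsf9 had 5.67 on all 3 knockdown arrays, 6.04, 5.92 and 5.67 in the knockout, and 4.32, 5.49 and 5.92 in wild type. Tra2a, an SR-like activator of exons, had 6.998, 6.61 and 6.50 in the knockdown, 6.15, 6.56 and 6.48 in the knockout, and 5.70, 6.59 and 6.34 in wild type. Its knockdown minus wild type difference was 0.49 (SE 0.23, limma adjusted p 0.966) and was 0.24 without wild type 1. Of the 3 SR protein kinases, Srpk1 had 7.45, 7.21 and 7.41 in the knockdown, 6.85, 7.42 and 7.36 in the knockout, and 6.84, 7.44 and 7.30 in wild type, with knockout 7 and wild type 1 low together.

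The 14 hnRNP and FET proteins had the highest knockdown median of the role groups. It was 0.24, beside 0.21 in the knockout, and all 14 were lower on wild type 1, with a median of -0.94. Without it the medians were -0.03 and -0.08, and 4 and 5 of the 14 were higher. Hnrnpk, an abundant hnRNP that binds cytosine-rich RNA, had 9.90, 9.78 and 9.93 in the knockdown, 9.58, 10.06 and 9.94 in the knockout, and 9.06, 10.17 and 9.99 in wild type. Hnrnpa3 had 9.05, 8.98 and 9.09 in the knockdown, 8.83, 9.27 and 8.90 in the knockout, and 7.78, 9.02 and 9.10 in wild type. Ptbp1, the polypyrimidine tract repressor of exons, did not share the deficit, with 7.21 to 7.38 in the knockdown, 7.38 to 7.47 in the knockout and 7.37 to 7.42 in wild type.

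The exon junction complex held the gene with the largest range of all splicing genes. Magoh had 7.40, 7.07 and 7.53 in the knockdown, 7.09, 7.61 and 7.31 in the knockout, and 5.73, 7.62 and 7.54 in wild type. Both mean differences from wild type were 0.37 (SE 0.43), and without wild type 1 both were -0.25. Its partner Rbm8a varied less, from 7.64 to 7.68 in the knockdown, 7.42 to 7.85 in the knockout and 7.25 to 7.78 in wild type, and the helicase Eif4a3 was 0.94 lower on wild type 1.

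Khsrp, a KH-domain protein that binds splicing enhancers and AU-rich RNA, had the smallest p-value of the splicing genes in the knockdown. It had 5.80, 5.79 and 5.86 in the knockdown, 5.69, 5.69 and 5.77 in the knockout, and 5.37, 5.68 and 5.49 in wild type. All 3 groups were free of overlap in that order. The knockdown minus wild type difference was 0.30 (95% interval 0.06 to 0.55, limma unadjusted p 0.0196, adjusted p 0.762), and 0.23 without wild type 1. Rbm4, a regulator of exon choice in muscle and neurons, had 5.43, 5.50 and 5.44 in the knockdown and 5.17, 5.73 and 5.41 in the knockout, against 4.10, 5.30 and 5.43 in wild type.

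Of the 34 genes on no role list of the splicing machinery, Gemin8, a subunit of the SMN complex that loads Sm rings, had 3.62, 3.98 and 3.78 in the knockdown, 3.21, 3.60 and 3.60 in the knockout, and 3.42, 3.60 and 3.39 in wild type. Its knockdown arrays lay above all others, by 0.32 on average (SE 0.14) against each group, at a signal low among the splicing genes. Without knockout 7 the difference from the knockout was 0.19. Ybx1, a cold-shock protein that binds RNA and splicing enhancers, stood the other way, with 7.73, 7.68 and 7.69 in the knockdown, 7.73, 8.26 and 8.26 in the knockout, and 8.01, 8.06 and 7.77 in wild type. Knockout 7 lay with the knockdown and apart from the other knockouts. The knockdown arrays lay below all wild types, by 0.25 on average (SE 0.16). The knockdown minus knockout difference was -0.39 (SE 0.16, limma unadjusted p 0.0350, adjusted p 0.894), and it was -0.51 with a limma adjusted p of 0.0448 with array weights, in a range of 0.0448 to 1 over 23 alternatives. Alyref, an export adaptor, had 6.77, 6.75 and 6.83 in the knockdown, just above 6.22, 6.70 and 6.69 in wild type.

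**Figure D4:**
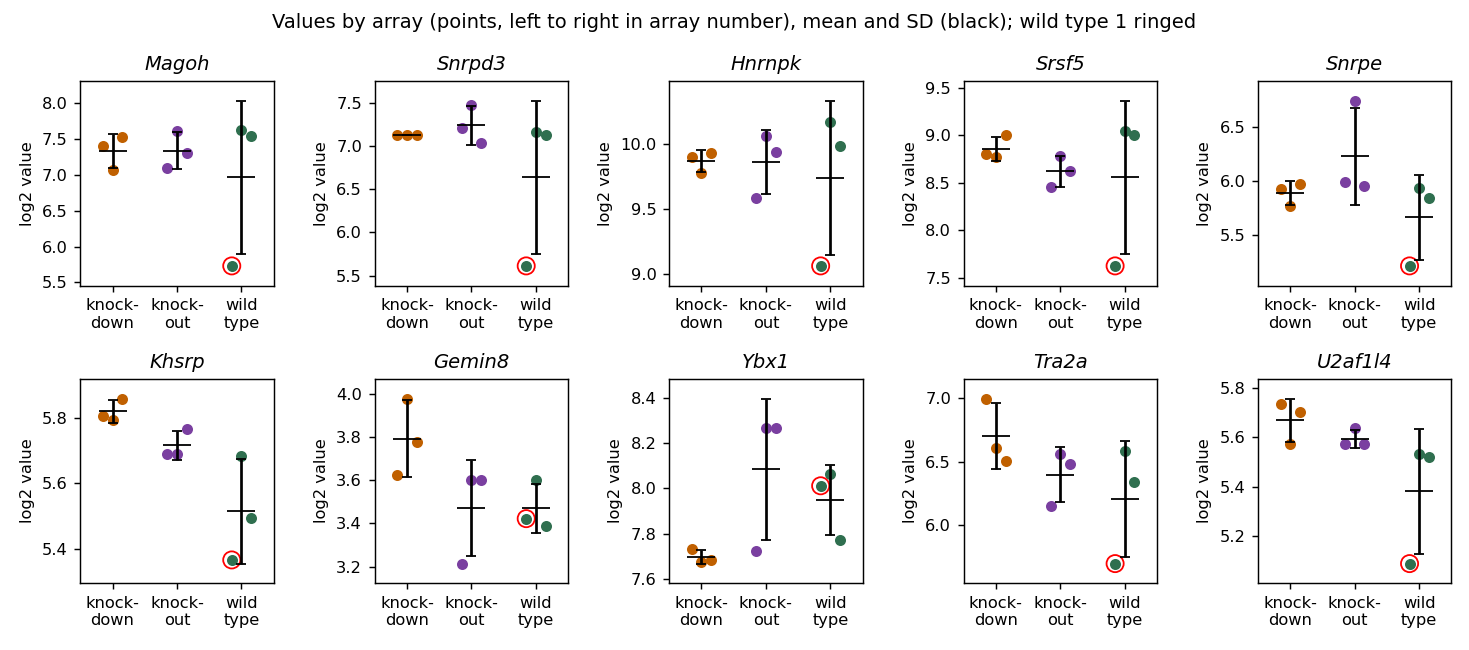
Log2 values (y axis) of 10 named splicing genes in the knockdown, knockout and wild type (x axis), with 1 point per array in order of array number, the mean and SD (n = 3) in black and wild type 1 ringed in red. For Magoh, Snrpd3, Hnrnpk and Srsf5 the ringed point stands alone at the bottom, while for Ybx1 and Gemin8 it lies among the other wild types.

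Without wild type 1, 32 of the 161 genes had higher means in both C2TA groups than in the remaining wild types, among them Khsrp, U2af1l4, Dhx16, Alyref, Eftud2 and U2af1. That is 19.9% of them, below the 35.3% of all genes, and both comparisons share wild types 2 and 3. This count was taken after the values were seen. The 2 shares were not matched for level. Without wild type 1, all genes of mean up to 4 had medians of 0.039 in the knockdown and 0.049 in the knockout. Those of mean 6 to 7 had -0.067 and -0.10.

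Knockout 8 was the array on which splicing genes were highest, and markers of other processes moved with it. All 18 measured cell cycle genes were highest on that array. Their mean log2 level was 5.19, 5.97 and 5.39 in the knockout, against 4.79, 5.07 and 4.94 in wild type, and their median shift from each gene's own mean was 0.70 on knockout 8 and -0.39 on wild type 1. Ccna2, a cyclin of S phase and mitosis, had 5.82, 6.50 and 6.02 in the knockout and 4.96, 5.40 and 4.95 in wild type (limma adjusted p 0.488). The 11 thymocyte markers had mean levels of 4.90, 5.81 and 5.55 in the knockout and 5.05, 4.85 and 5.10 in wild type, with 0.69 as their median shift on knockout 8. Cd3e, the T cell receptor subunit, had 4.70, 6.14 and 5.68 in the knockout and 5.22, 4.998 and 5.15 in wild type. The part of cycling cells or thymocytes in the level of the splicing genes was not tested. The 13 markers of medullary epithelium were also low on wild type 1, with a median shift of -0.42 there. They are bright, with a median level of 8.64. Against wild types 2 and 3 their median on wild type 1 was -0.50, near the -0.55 of all genes above a mean of 8.

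**Figure D5:**
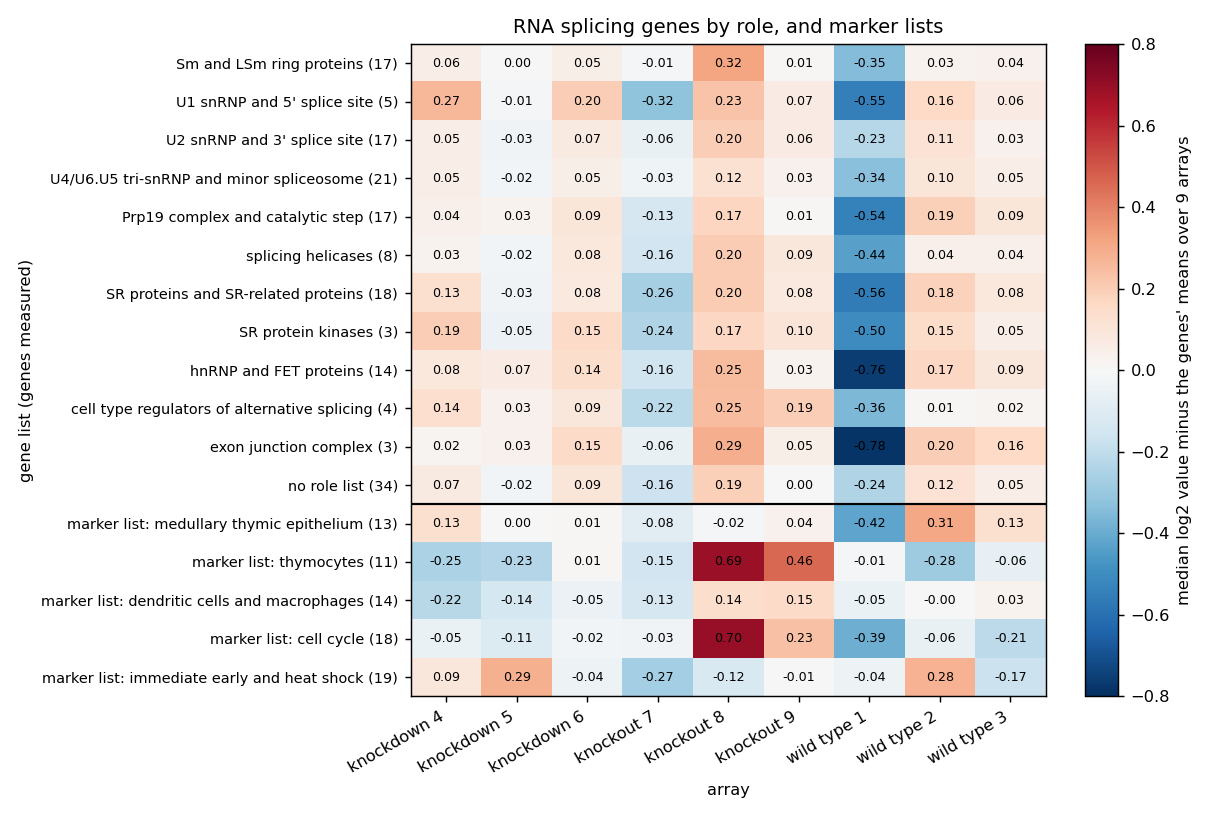
Each cell gives the median log2 value minus the genes' own means over 9 arrays for a list (rows, with the number of genes) on an array (columns); role groups of the splicing genes stand above the line and marker lists below it. Wild type 1 is below 0 in every role group, from -0.23 to -0.78, and the cell cycle list reaches 0.70 on knockout 8.

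Genes outside the annotation were low on wild type 1 as well. A further 121 genes with roles in splicing lacked the term, and their median was -0.38 on wild type 1 against the other wild types, with 96 of 121 lower. Their medians against wild type were 0.087 in the knockdown (85 of 121 higher) and 0.088 in the knockout (81 higher), and -0.037 and -0.051 without wild type 1. The parts of the 121 differed. On wild type 1 the 19 hnRNP and FET genes had -0.88 at a median level of 7.50. The 33 cell type regulators had -0.092 at 5.62, and 16 of 33 were higher in the knockdown. The 15 SR proteins and relatives had -0.30 at 6.43, and the 5 SR protein kinases -0.18 at 6.56. The medians of the remaining parts lay between -0.88 and -0.092. All genes of mean 6 to 7 had -0.45 and those of mean 7 to 8 had -0.55. The 17 genes of cleavage and polyadenylation had -0.68 on wild type 1 with 15 lower, and the 10 genes of mRNA export without the term had -0.54 with 10 lower. The 9 genes of snRNP assembly without it had -0.19 with 7 lower. None of these passed the limma threshold against wild type. The lists were not matched for level. The 121 genes had a median level of 5.93, and the polyadenylation and export genes 5.85 and 5.78. All genes of mean 5 to 6 had -0.25 on wild type 1. The snRNP assembly genes had a median level of 4.86, where all genes of mean 4 to 5 had -0.01.

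The epithelial splicing regulators Esrp1 and Esrp2, which set epithelial splice forms and are not annotated here, were measured as well. Esrp1 had 8.26, 7.94 and 8.07 in the knockdown, 7.52, 7.83 and 7.94 in the knockout, and 7.50, 8.04 and 7.94 in wild type. Esrp2 had 6.48, 6.08 and 6.32 in the knockdown, 5.85, 5.88 and 6.20 in the knockout, and 5.41, 6.07 and 6.08 in wild type. The knockdown minus wild type difference of Esrp2 was 0.44 (SE 0.20, limma adjusted p 0.944) and was 0.22 without wild type 1, and the lowest knockdown array equalled the highest wild type. Both were lower on wild type 1, by 0.49 and 0.66.

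The authors' deposited table scores each probe set by a percent q-value of an unstated comparison. There, 0 of the 212 splicing probe sets had a q-value under 5%, against 0.0816% of all probe sets. The smallest was 72.9% for Cdc5l, a subunit of the Prp19 complex.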

How the data were processed

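The grouping of the 9 arrays was taken from the sample titles. The deposited log2 values were made by the authors with RMA, which normalizes between arrays and summarises probes by median polish, per the submitters' processing notes. Neither the RMA version nor the array annotation release is stated in the labels. Deposited intensity values on a linear scale were not tested. A second copy of the log2 values equalled the values used for all 35552 probe sets on each of the 9 arrays. The authors' deposited table also holds a score, a q-value in percent, which was used as a description.

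Symbols were updated through the RefSeq gene table of GRCm38.p6 (15192 probe sets through accessions, 3746 through symbols, 1262 through synonyms, 1336 unchanged); 38 of the 161 splicing genes were renamed. The probe set with the highest mean was kept per gene. One limma 3.58.1 model (lmFit, eBayes, R 4.3.3) was fitted to all 19593 genes and 9 arrays, with 6 residual degrees of freedom, two-sided p-values and Benjamini-Hochberg adjustment over all genes at 0.05. With 3 arrays a group, an exact permutation p cannot fall below 0.1. The fit was tested on simulated data. Precision is limited by the 9 arrays. The splicing genes, their role lists and the marker lists were chosen with earlier results of these data known.

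Named genes were taken from those without overlap between groups, the brightest and those of smallest p per role, and the extremes of level and range. The Srsf genes with the annotation, Esrp1 and Esrp2 were added. Not every gene picked in this way is printed. Snrpa, U2af2, Prpf8, Prpf19, Ptbp1, Lsm8, Cwc15, Snrpb2, Scaf1 and Cdc5l were named after their values were seen. A result for 1 further gene is not given. The alternatives were other normalizations, array weights, the interquartile range as a covariate, filters on dim genes, an intensity trend, other choices of probe sets and of groups, and leaving out arrays. Values were tabulated with Python 3.11.15, pandas 2.3.3 and numpy 2.4.6.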

Additional observations from a re-analysis of the deposited data

How the results depend on the processing

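The median of the splicing genes kept its direction in the knockdown against wild type except without wild type 1, alone or with knockout 7 (-0.0379), and ran from -0.0379 to 0.2386 when arrays were left out 1 at a time. In the knockout against wild type it turned without wild type 1 and, with repeated quantile normalization, on the 8 other arrays (-0.0094), and ran from -0.0609 to 0.213. Between knockdown and knockout it turned with scale normalization (-0.0028), cyclic loess (-0.0021) and array weights (-0.0128). It also turned without knockout 7, alone or with wild type 1 (-0.0637), and vanished without knockdown 6. With arrays left out 1 at a time it ran from -0.0637 to 0.0982. The cause was not tested beyond the construction of these settings.

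Splicing genes past the threshold numbered 0 in all 3 comparisons under every alternative but array weights, which called 1, Ybx1, between knockdown and knockout. Over all genes the count was 13 in the knockdown against wild type, and 47, 41 and 55 with quantile, scale and cyclic loess normalization, 134 with the interquartile range as a covariate, 322 with array weights, 22 for genes of mean 4 or more, 2 with only the groups compared, 51 without wild type 1 and knockout 7, and 95 and 33 with quantile normalization without wild type 1 and without knockout 8; it ran from 5 to 48 when arrays were left out 1 at a time, where leaving out wild type 1 gave 48, knockdown 4 gave 8 and knockdown 6 gave 5. In the knockout against wild type it was 9, and 29 with the covariate, 61 with array weights, 4 with only the groups compared and 19 with quantile normalization without wild type 1. Between knockdown and knockout it was 8, and 37, 13 and 40 with quantile, scale and cyclic loess normalization, 155 with the covariate, 313 with array weights, 66 without wild type 1 and knockout 7 and 124 with quantile normalization without wild type 1, and it ran from 5 to 38, with 38 without wild type 1 and 5 without knockdown 4, knockdown 6 or knockout 7.

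Differences of named genes were checked for 33 picked for lack of overlap or smallest p, which leaves out others printed above. Of these, 29 were against wild type, and 4 of the 29 turned without wild type 1. Further differences outside the 33 turned as well, among them Srsf5 in both groups. In the knockdown, Magoh, Hnrnpk, Plrg1, Ddx5, Sf3b1 and Srpk1 were also among those that turned. Over all splicing genes, 83 of the 133 with higher means in the knockdown turned lower without it, and 74 of 133 in the knockout. None of the 33, which do not include Ybx1 between knockdown and knockout, passed the threshold under any of 23 alternatives. Xab2 and Hnrnpa3 in the knockdown turned without wild type 1 and knockout 7 (-0.0300 and -0.0182). Magoh in the knockout turned with quantile normalization without wild type 1 (-0.1532), without wild type 1 and knockout 7 (-0.1237) and with array weights (-0.1033). Leaving out 1 array at a time gave -0.0300 to 0.3949 for Xab2, -0.0182 to 0.6382 for Hnrnpa3, -0.2451 to 0.7012 for Magoh and -0.0614 to 0.4289 for Eif4a3 in the knockout. The settings that join quantile normalization with a left-out array were chosen after seeing the data. No paired analysis was possible because the replicate numbers, 1 to 9, are not shared between groups. Gemin8 and Txnl4b lie among the dim splicing genes, and the values used here give no background to set them against.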
